A study of Mus musculus with 75 samples.

Results

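The Cyp3a genes encode cytochrome P450 enzymes of subfamily 3A. The 8 members described here, Cyp3a11, Cyp3a13, Cyp3a16, Cyp3a25, Cyp3a41a, Cyp3a41b, Cyp3a44 and Cyp3a59, were taken by gene symbol from a table of 55536 genes, and each was found once. A further 3 Cyp3a entries of the table, Cyp3a57 and 2 pseudogenes, were not members. RNA had been measured in the livers of C57Bl/6 mice labelled male. Their dams drank either vehicle or tributyltin (TBT), an organotin compound used as a biocide that binds nuclear receptors, at a dose of 0.5 mg per kg body weight each day (3.07 µM in the water), up to weaning. All exposed groups therefore share an exposure that ended at weaning. At 3 weeks there were vehicle mice (8 libraries, 7 samples) and TBT mice (8). At 5 months there were vehicle mice (8), TBT mice labelled low-risk (16) and TBT mice labelled high-risk (10). At 10 months there were vehicle mice (6), low-risk TBT mice (5), uninvolved liver of TBT mice labelled high-risk (6 libraries, 5 samples) and tumors of TBT mice (7). What placed a 5-month liver in either risk group is not given in the sources used here. A single 10-month vehicle library carried the label of a tumor and was kept apart.

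Enzymes of the 3A subfamily sit in the endoplasmic reticulum of hepatocytes and gut cells, where they oxidise steroids, bile acids and a large share of drugs. They receive electrons from the reductase Por. Cyp3a11 is the main adult enzyme and the classical target of the pregnane X receptor (PXR, gene Nr1i2), which pairs with RXR and binds repeats of short half-sites. Cyp3a13 and Cyp3a25 are also adult enzymes of both sexes. Cyp3a16 is known as a perinatal and juvenile enzyme, and Cyp3a41a, Cyp3a41b and Cyp3a44 as enzymes of adult female liver, held low in adult males by the male pattern of growth hormone secretion. Less is known of Cyp3a59.

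All members lie on chromosome 5 (GRCm38 coordinates, GENCODE M21). Of these, 7 form a cluster of 677 kb at chr5:145436309-146113287, in the order Cyp3a16, Cyp3a41b, Cyp3a41a, Cyp3a44, Cyp3a11, Cyp3a25 and Cyp3a59. Cyp3a13 lies apart, at chr5:137892932-137921619. Cyp3a59 is on the plus strand and the other members are on the minus strand. The 250 bases before the start are shown for the 5 members on which the comparisons turn, from RefSeq windows of GRCm38.p6. All 8 members matched the RefSeq table. Sequences run 5′ to 3′ along the gene, and capitals mark nuclear receptor half-sites on either strand, AGGTCA or AGTTCA. The windows were chr5:145879855-145880104 for Cyp3a11, chr5:145805875-145806124 for Cyp3a44, chr5:145469724-145469973 for Cyp3a16, chr5:146009619-146009868 for Cyp3a25 and chr5:146079008-146079257 for Cyp3a59.
Cyp3a11: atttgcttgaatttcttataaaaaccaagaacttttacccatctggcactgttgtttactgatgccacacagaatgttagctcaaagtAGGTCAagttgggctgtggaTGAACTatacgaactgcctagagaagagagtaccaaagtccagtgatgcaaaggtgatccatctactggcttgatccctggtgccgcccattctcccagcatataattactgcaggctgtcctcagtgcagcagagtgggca
Cyp3a44: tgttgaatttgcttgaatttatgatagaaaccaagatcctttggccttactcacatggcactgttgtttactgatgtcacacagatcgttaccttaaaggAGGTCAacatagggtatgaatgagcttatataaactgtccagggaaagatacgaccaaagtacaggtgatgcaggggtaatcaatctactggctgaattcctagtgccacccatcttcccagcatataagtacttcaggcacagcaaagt
Cyp3a16: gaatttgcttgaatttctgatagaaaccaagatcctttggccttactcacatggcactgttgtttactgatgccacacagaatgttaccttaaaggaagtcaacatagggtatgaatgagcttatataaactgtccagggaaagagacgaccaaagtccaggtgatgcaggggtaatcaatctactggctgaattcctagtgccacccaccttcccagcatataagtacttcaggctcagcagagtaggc
Cyp3a25: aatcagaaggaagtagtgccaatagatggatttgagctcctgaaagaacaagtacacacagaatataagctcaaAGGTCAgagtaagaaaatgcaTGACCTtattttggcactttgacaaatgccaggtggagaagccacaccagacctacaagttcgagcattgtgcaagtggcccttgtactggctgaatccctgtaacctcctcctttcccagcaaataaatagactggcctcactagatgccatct
Cyp3a59: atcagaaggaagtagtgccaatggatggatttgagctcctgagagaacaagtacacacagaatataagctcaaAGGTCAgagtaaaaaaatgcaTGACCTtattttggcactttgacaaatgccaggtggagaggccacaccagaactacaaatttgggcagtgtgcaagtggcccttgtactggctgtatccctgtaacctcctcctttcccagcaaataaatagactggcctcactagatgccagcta
Cyp3a44 and Cyp3a16 shared 93.4% of the aligned positions of their 300-base windows (250 bases before and 50 after the start). Cyp3a25 and Cyp3a59 shared 95.7%, with both of their half-sites in the same order. Cyp3a11 shared 50.8% with Cyp3a25 and 71.2% with Cyp3a44. In the 300-base windows, AGGTCA was found in 4 of 8 members (Cyp3a11, Cyp3a25, Cyp3a44 and Cyp3a59) and in 16.2% of 32544 RefSeq windows. AGTTCA was found in 3 of 8 (Cyp3a11, Cyp3a41a and Cyp3a41b) and in 13.99% of windows. TATAAA was found in 5 of 8 (all but Cyp3a13, Cyp3a25 and Cyp3a59) and in 13.6%. The everted and direct repeats searched (ER6, DR3 and DR4, made of these half-sites with 6, 3 or 4 bases between them) and the STAT5 motif TTCNNNGAA were found in 0 of 8 windows. STAT5 had a match in 8.33% of all windows, and the repeats in at most 0.0277%. These are matches of letters in a short window and no more than that.

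The likeness of the genes limits what counting can separate. The coding sequences of Cyp3a41a and Cyp3a41b were 99.9% identical, and 1.39% and 6.50% of their 50-base stretches were found in no transcript of any other gene. Values of these members are uncertain for this reason. Cyp3a25 and Cyp3a59 had coding sequences 97.5% identical, with 73.2% and 70.0% of 50-base stretches unique. Cyp3a11 had 93.3%, Cyp3a16 89.3%, Cyp3a44 73.5% and Cyp3a13 100% unique. How reads that match several genes were counted is not given in the sources used here.

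Libraries held between 2.83 M and 45.4 M counts (M, 1000000). Levels are given as counts per 1000000 counts of the library (CPM), as mean ± SD over samples. Hepatocyte markers summed to between 83483 and 184020 CPM in the 5-month TBT livers. Counts of uninvolved livers 3 and 6 differed by a chi-square of 3.48 per degree of freedom, against at least 13.5 for any other pair within a group, so the pair was summed to 1 sample. Both libraries of 3-week vehicle mouse 3 were summed as well. In the sample that bears the label of 3-week TBT mouse 4, Xist reached 348 CPM, against at most 84.6 CPM in any other library, and 0.0595 CPM was found for Kdm5d, against at least 9.38 CPM elsewhere. Without this library, 0 members were still called at 3 weeks, and the same 5 members were called between 3-week TBT and 5-month low-risk livers. Sequencing batch 2 held 7 of the 10 high-risk, 10 of the 16 low-risk and 1 of the 8 vehicle livers of 5 months, and every other library was of batch 1. Replicates carry separate numbers in their titles, but litters are not named, so p-values measure the spread between these samples. Intervals of log2 differences are 95% intervals from the t distribution with each gene's degrees of freedom in edgeR. Where groups are said not to overlap, the share of all genes without overlap was not counted, so these statements only describe the values.

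Cyp3a11 had the highest mean CPM of the members in every group, and its level split the groups. The lowest, median and highest CPM were 1164, 1514 and 1913 in 3-week vehicles and 978, 1401 and 1816 in 3-week TBT livers. At 5 months they were 98.9, 660 and 1566 in vehicles, 175, 628 and 1362 in low-risk livers and 1845, 4289 and 5678 in high-risk livers. At 10 months they were 421, 580 and 876 in vehicles and 1675, 4944 and 9066 in tumors. The 5 low-risk livers of 10 months had 366, 943, 137, 986 and 1222 CPM. The 5 uninvolved samples had 3553, 4824, 2810, 1472 and 3318 CPM. No high-risk liver was as low as any low-risk or vehicle liver of its age, and the same held for uninvolved samples and tumors at 10 months. The vehicle and low-risk groups overlapped at both ages. Ordered by mean, tumors (5269 ± 3023, n = 7) came before high-risk (3847 ± 1321, n = 10) and uninvolved livers (3195 ± 1216, n = 5). The 3-week vehicle (1500 ± 274, n = 7) and TBT livers (1362 ± 305, n = 8) followed. Then came 10-month low-risk (731 ± 457, n = 5), 5-month vehicle (707 ± 447, n = 8), 5-month low-risk (678 ± 333, n = 16) and 10-month vehicle livers (613 ± 155, n = 6). The ranges of all neighbours in this order overlapped.

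**Figure D1:**
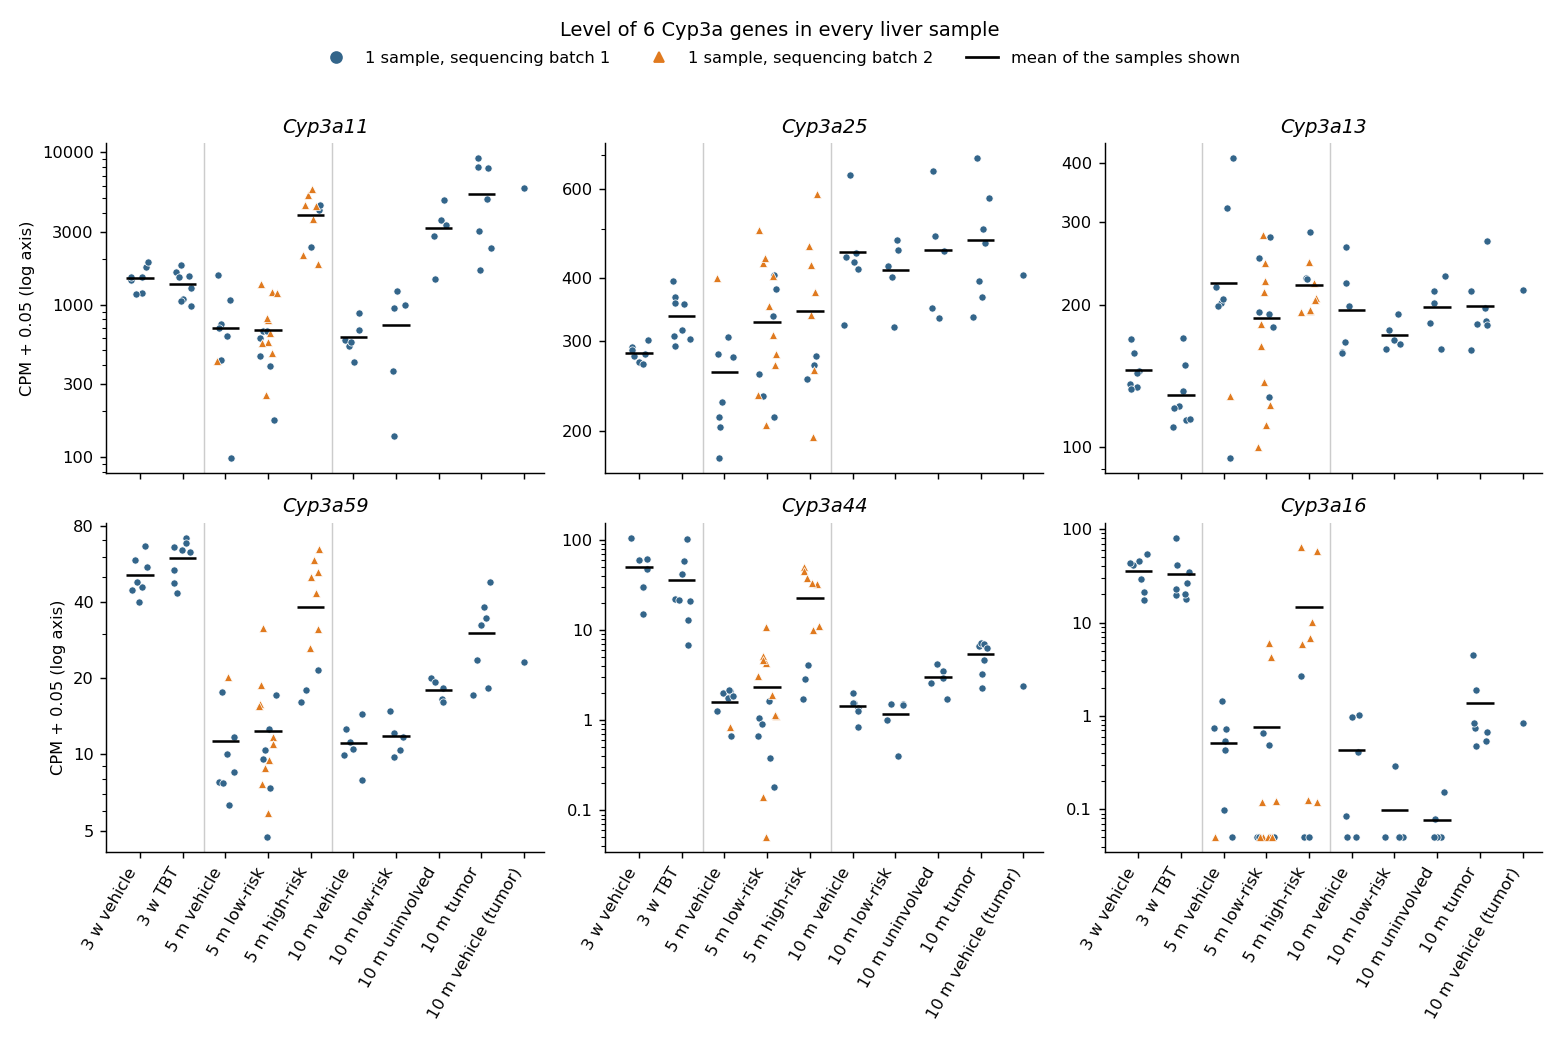
Levels (CPM + 0.05, log axis) of 6 Cyp3a genes in each sample of the 9 groups and in the vehicle library labelled as a tumor. Points are samples, with circles for sequencing batch 1 and triangles for batch 2, and bars are means. Cyp3a11 lies between 1845 and 5678 CPM in high-risk livers, above all low-risk and vehicle livers of 5 months.

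Compared per kb of the longest coding transcript, Cyp3a11 had 301 ± 191 CPM per kb in 5-month vehicles (SD, n = 8). Cyp3a25 had 131 ± 35.8, Cyp3a13 75.3 ± 34.1, Cyp3a59 5.63 ± 2.55, Cyp3a44 0.785 ± 0.297 and Cyp3a16 0.266 ± 0.276 CPM per kb in the same livers. On this scale Cyp3a11 made up a mean of 53.6% ± 16.2 of the 8 genes' summed level in those vehicles (SD, n = 8). It made up 52.6% ± 14.1 in low-risk livers (n = 16) and 83.6% ± 7.81 in high-risk livers (n = 10). At 10 months its share was 46.8% ± 9.28 in vehicles (n = 6), 48.1% ± 19.1 in low-risk livers (n = 5), 79.5% ± 11.3 in uninvolved samples (n = 5) and 84.0% ± 9.33 in tumors (n = 7). The annotated exons of Cyp3a11 cover 5.09 kb, but its coding transcript is 2.34 kb long. Division by the exon length lowered its share to 35.6% in low-risk and 71.3% in high-risk livers, so high-risk livers kept the larger share, but in low-risk livers Cyp3a25 (43.5%) then came first. Cyp3a25 also came first on that scale in 5-month vehicles (38.6% against 36.7%), 10-month vehicles (52.3% against 29.8%) and 10-month low-risk livers (50.6% against 32.2%). The counts of all 8 members summed to between 783 and 1778 CPM in low-risk livers and between 2592 and 6464 CPM in high-risk livers of 5 months, with no overlap.

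**Figure D2:**
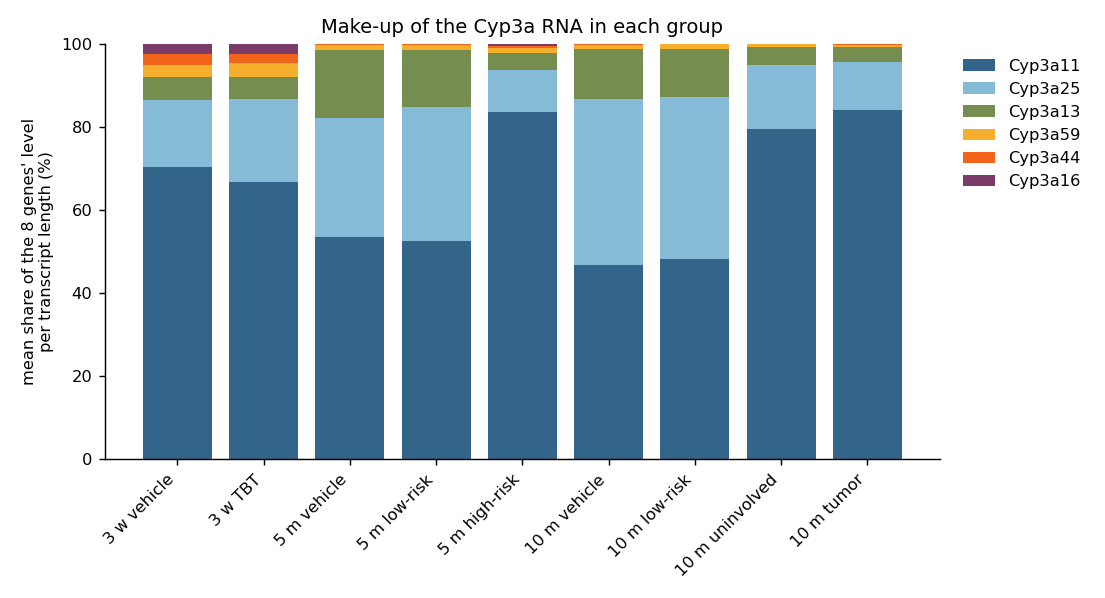
Mean share (%) of 6 members in the summed level of the 8 genes, per kb of the longest coding transcript, in the 9 groups (Cyp3a41a and Cyp3a41b are too low to be seen). Cyp3a11 takes 83.6% in 5-month high-risk livers and 52.6% in low-risk livers.

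Cyp3a25 is an adult steroid and drug oxidase. Its group means ran from 261 ± 71.6 CPM (5-month vehicles, n = 8) to 476 ± 125 CPM (tumors, n = 7), and no pair of neighbours in their order was separated. Cyp3a13, the member outside the cluster and one also known from the intestine, ran from 129 ± 20.8 CPM (3-week TBT livers, n = 8) to 223 ± 101 CPM (5-month vehicles, n = 8). Cyp3a59, Cyp3a44 and Cyp3a16 had their highest means at 3 weeks. Cyp3a59 had 59.7 ± 10.2 CPM in 3-week TBT livers (n = 8), 51.1 ± 9.27 CPM in 3-week vehicles (n = 7) and 38.3 ± 17.9 CPM in 5-month high-risk livers (n = 10), and 11.04 ± 2.21 CPM in 10-month vehicles (n = 6). Cyp3a41a and Cyp3a41b never had more than 27 and 31 counts in a library. Their summed level was highest in 3-week TBT livers, at 0.792 ± 1.19 CPM (n = 8). No low-risk liver of 5 months had a count of Cyp3a41b, which allows at most 0.0126 CPM over the group (3 counts). In low-risk livers of 10 months neither gene had a count, which allows at most 0.0201 CPM each, and these limits cover counting error only. Both failed the filter on low counts in every comparison and were tested in none.

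At weaning, TBT and vehicle livers were compared while exposure had just ended. The groups overlapped for the 6 members tested, and 0 of them passed edgeR's quasi-likelihood test at an adjusted p of 0.05 (background 0% of 14050 genes tested). DESeq2 also called 0 members. Cyp3a25 and Cyp3a59 were the 2 members with an unadjusted p under 0.05. Cyp3a25 had 337 ± 36.6 CPM in TBT livers (n = 8) and 284 ± 11.1 CPM in vehicles (n = 7), a log2 difference of 0.26 (95% interval 0.12 to 0.41, adjusted p = 0.999 with edgeR). For Cyp3a11 the log2 difference was -0.09, with an interval from -0.46 to 0.27. For Cyp3a44, whose level ranged from 15.1 to 106 CPM in vehicles and from 6.90 to 102 CPM in TBT livers, the interval was wide, from -1.66 to 0.78.

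Between 3 weeks and 5 months Cyp3a16, Cyp3a44 and Cyp3a59 fell in control livers. Among vehicles of batch 1, 3 of the 6 tested members were lower at 5 months (background 9.93% of 13927 genes lower) and 1 was higher (background 8.93% higher). Cyp3a16 had a lowest, median and highest level of 17.6, 40.9 and 53.5 CPM at 3 weeks, and 0, 0.493 and 1.41 CPM in the 7 batch 1 vehicles of 5 months. No sample overlapped. Its log2 fold change was -6.26 (SE 0.47, adjusted p = 2.5e-07, edgeR), and it had passed the filter on low counts through the 3-week livers. The count of 3 lower members leans on that filter for Cyp3a16. Cyp3a44 had 15.1, 48.1 and 106 CPM at 3 weeks and 0.617, 1.80 and 2.12 CPM at 5 months, again without overlap. It fell by 4.84 on the log2 scale (SE 0.43, adjusted p = 1.8e-06). Cyp3a59 had 39.8, 47.7 and 66.3 CPM at 3 weeks and 6.28, 8.48 and 17.6 CPM at 5 months, and fell by 2.19 (SE 0.17, adjusted p = 3.9e-07). Its near copy Cyp3a25 had a log2 difference of -0.05 (95% interval -0.33 to 0.23, adjusted p = 0.85). Cyp3a13 rose, by 0.86 (SE 0.20, adjusted p = 0.0066). Cyp3a11 had a log2 difference of -0.86 (SE 0.37, adjusted p = 0.12), which passed the test (-1.11) when 5-month vehicle 4 was left out.

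Livers of 3-week TBT mice were compared with 5-month low-risk livers of batch 1, which share no library with the vehicle comparison. Here 4 members were lower (background 12.5% of 14069 genes lower) and 1 was higher (background 13.7% higher). Cyp3a16 fell by 7.09 (SE 0.67), Cyp3a44 by 5.43 (SE 0.73), Cyp3a59 by 2.43 (SE 0.22) and Cyp3a11 by 1.39 (SE 0.27) on the log2 scale, with adjusted p values of 3.7e-06, 0.00012, 1.0e-06 and 0.0011 in edgeR. Cyp3a16 had no count in 4 of the 6 low-risk livers (28 counts in all). It had passed the filter on low counts through the 3-week livers, so the count of 4 lower members leans on that filter. Cyp3a13 rose by 0.76 (SE 0.16, adjusted p = 0.0021). Whether the falls differed between exposed and control livers was not tested.

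At 5 months the high-risk livers were compared with the low-risk livers, both exposed. High-risk livers had more RNA of Cyp3a11, Cyp3a16, Cyp3a44 and Cyp3a59. Of the 6 members tested, 4 were higher and 0 lower, against a background of 38.9% of 14773 genes called, 20.3% higher and 18.5% lower. Cyp3a11 rose by 2.17 on the log2 scale (SE 0.28, adjusted p = 4.5e-07, edgeR), a fitted fold of 4.49 (the ratio of mean CPM was 5.67), and all 10 high-risk livers lay above all 16 low-risk livers. For Cyp3a44 the lowest, median and highest levels were 1.67, 22.002 and 50.5 CPM in the high-risk group, and 0, 1.09 and 10.8 CPM in the low-risk group, so the groups overlapped. It rose by 2.64 (SE 0.46, adjusted p = 3.6e-05), and 6 of 10 high-risk livers exceeded every low-risk liver. For Cyp3a59 these levels were 16.1, 37.3 and 64.9 CPM with high risk, against 4.65, 10.6 and 31.4 CPM with low risk. It rose by 1.19 (SE 0.22, adjusted p = 5.3e-05), with 5 of 10 high-risk livers above every low-risk liver. For Cyp3a16 they were 0, 4.22 and 64.1 CPM with high risk, against 0, 0 and 5.96 CPM with low risk, where 10 livers held no count. It rose by 3.56 (SE 0.98, adjusted p = 0.0046, edgeR) and had passed the filter through the high-risk livers. The count of 4 higher members leans on that filter for Cyp3a16. The level rested on few animals, since high-risk mice 10 and 25 had 64.1 and 58.2 CPM and the other 8 at most 9.99 CPM. Cyp3a25, despite its likeness to Cyp3a59, averaged 345 ± 118 CPM with high risk (n = 10) and 328 ± 90.4 CPM with low risk (n = 16), and its log2 difference of -0.26 (95% interval -0.58 to 0.06, adjusted p = 0.20 in edgeR) did not pass. Cyp3a13 averaged 221 ± 29.0 and 188 ± 58.4 CPM, with -0.05 (-0.39 to 0.30, adjusted p = 0.85). In bulk tissue, fewer cells of a type and less RNA per cell cannot be told apart.

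In high-risk livers, levels of Cyp3a44 and Cyp3a59 were higher in sequencing batch 2, while the means of Cyp3a11 were close in both batches. By the name of the deposited table, the counts had already been adjusted between batches. Among the 3 high-risk livers of batch 1, Cyp3a44 had 4.11, 2.85 and 1.67 CPM, and among the 7 of batch 2 it ranged from 9.91 to 50.5 CPM. In low-risk livers it ranged from 0.130 to 1.58 CPM in batch 1 (n = 6) and from 0 to 10.8 CPM in batch 2 (n = 10). The groups did not overlap within batch 1 and overlapped within batch 2. Cyp3a59 had 18.5 ± 2.77 CPM in high-risk livers of batch 1 (n = 3) and 46.7 ± 14.1 CPM in those of batch 2 (n = 7), against 10.2 ± 4.29 (n = 6) and 13.6 ± 7.45 CPM (n = 10) in low-risk livers. Cyp3a16 had 0, 0 and 2.62 CPM in the high-risk livers of batch 1. Cyp3a11 had 3678 ± 1124 CPM in high-risk livers of batch 1 (n = 3) and 3919 ± 1475 CPM in those of batch 2 (n = 7). In batch 2 alone 4 members were called, with log2 fold changes of 1.956 for Cyp3a11, 2.98 for Cyp3a44, 1.48 for Cyp3a59 and 4.09 for Cyp3a16. Over all genes, 4472 were called there. In batch 1 alone, where 773 of all genes were called, only Cyp3a11 was called among the members (2.60, SE 0.50, adjusted p = 0.012, edgeR). There Cyp3a44 had 1.62 (SE 0.54, adjusted p = 0.098), Cyp3a59 0.56 (adjusted p = 0.38) and Cyp3a16 1.95 (adjusted p = 0.51). The difference between the batches was itself tested, a test chosen after the values were seen. It was 1.32 for Cyp3a44 (95% interval -0.89 to 3.53) and 0.88 for Cyp3a59 (-0.11 to 1.86). Here 0 members passed in edgeR or DESeq2, with 0 at an unadjusted p under 0.05 (background 0% of 16335 genes). Without the technically deviating libraries (high-risk 10 and 15, low-risk 16 and vehicle 9 at this age) all 4 calls held, with log2 fold changes of 2.11, 2.58, 1.29 and 3.07 for Cyp3a11, Cyp3a44, Cyp3a59 and Cyp3a16.

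**Figure D3:**
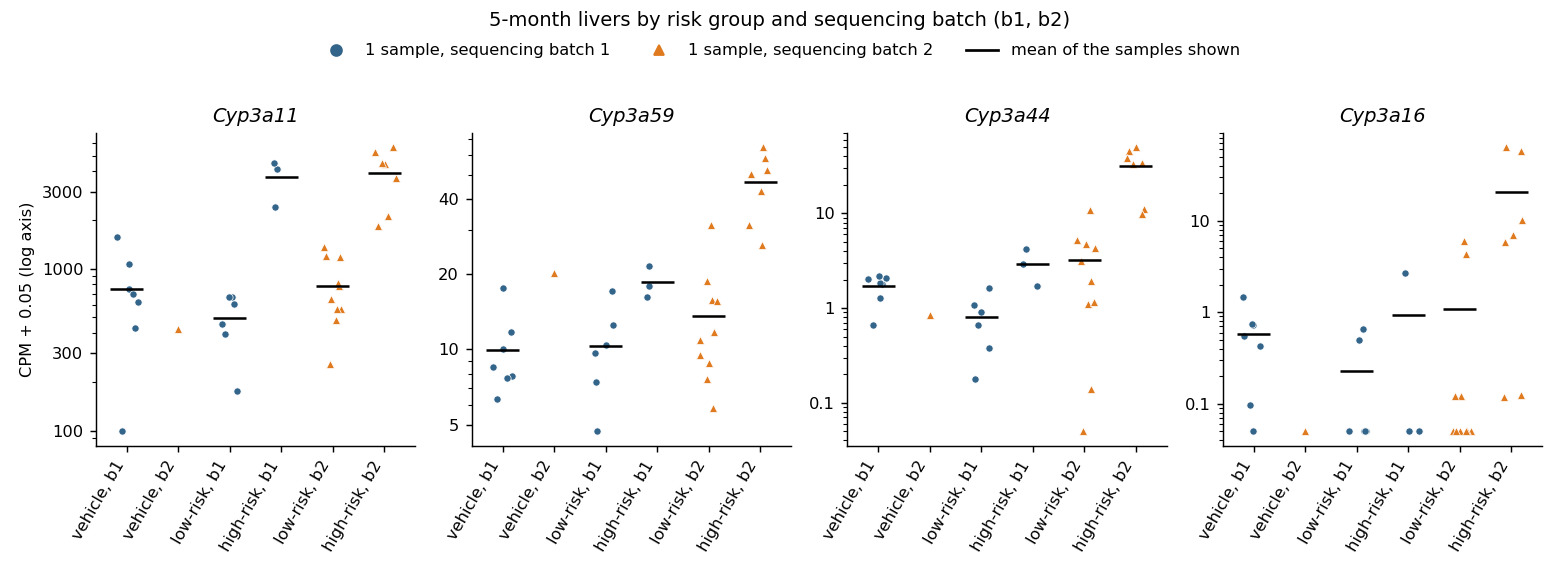
Levels (CPM + 0.05, log axis) of 4 members in 5-month livers, split by group and sequencing batch (b1, b2). Points are samples and bars their mean. High-risk means of Cyp3a11 are 3678 CPM in batch 1 and 3919 CPM in batch 2, whereas Cyp3a44 ranges from 1.67 to 4.11 CPM in batch 1 and from 9.91 to 50.5 CPM in batch 2.

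Against vehicles of 5 months, which enter with the same high-risk livers, 2 members were higher in high-risk livers (background 8.47% of 14773 genes higher and 7.38% lower). Cyp3a11 rose by 1.87 (SE 0.38, adjusted p = 0.0014, edgeR) and Cyp3a59 by 0.93 (SE 0.29, adjusted p = 0.026). All 10 high-risk livers exceeded every vehicle in Cyp3a11, and 8 of 10 did in Cyp3a59. The Cyp3a59 call was lost without vehicle 1 (0.89) or vehicle 5 (0.87), with no filter on low counts (0.92), in a fit of the 2 groups only (0.67) and in batch 1 alone (0.54). Cyp3a44 had 0.617, 1.77 and 2.12 CPM in vehicles, and 9 of 10 high-risk livers lay above them. Its log2 difference of 1.60 (SE 0.69, adjusted p = 0.11) became a call without the batch term (3.54) or with library totals only (2.001). Cyp3a16 was also called without the batch term (4.81). Since 7 of 8 vehicles were of batch 1, this contrast rests on the batch term. In batch 1 alone 0 members were called, and Cyp3a11 had 1.93 (SE 0.48, adjusted p = 0.098).

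Low-risk livers were compared with vehicles at both adult ages. At 5 months 0 of 6 members were called by edgeR or DESeq2, with 0 at an unadjusted p under 0.05 (background 0% of 14773 genes). For Cyp3a11 the log2 difference was -0.30, with a 95% interval from -1.01 to 0.41, and for Cyp3a44 it was -1.04 (-2.31 to 0.23). The direction for Cyp3a44 rests on the batch term, since its mean was 2.29 CPM in low-risk livers and 1.54 CPM in vehicles, and the fit without that term gave 0.53 (adjusted p = 0.90, edgeR). At 10 months 0 of 5 members were called by either tool, again with 0 at an unadjusted p under 0.05 (background 0% of 16338 genes). The interval for Cyp3a11 was -0.72 to 1.04 and that for Cyp3a59 was -0.29 to 0.31.

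Ages 5 and 10 months were compared within batch 1. In vehicles, Cyp3a25 rose between 5 and 10 months by 0.81 (SE 0.18, adjusted p = 0.017, edgeR), the only 1 of 6 members called (background 8.13% of 14333 genes called, 4.05% higher and 4.08% lower). It had 241 ± 48.5 CPM in batch 1 vehicles of 5 months (n = 7) and 449 ± 103 CPM at 10 months (n = 6). The ranges were 177 to 307 and 323 to 637 CPM, with no overlap. The 5-month vehicle of batch 2, left out here, had 399 CPM, which lies within the 10-month range. In low-risk livers the log2 difference of Cyp3a25 was 0.40 (SE 0.17, adjusted p = 0.64). There 0 of 5 members were called by edgeR or DESeq2, Cyp3a25 alone had an unadjusted p under 0.05, and 0% of 14654 genes were called.

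At 10 months, uninvolved liver of tumor-bearing mice was compared with low-risk liver. Of the 5 members tested, 3 were higher and 0 lower (background 52.4% of 16338 genes called, 27.7% higher and 24.7% lower). Cyp3a11 rose by 1.92 (SE 0.45, adjusted p = 0.0024, edgeR), a fitted fold of 3.78. Cyp3a44 had 3.45, 4.17, 2.57, 1.67 and 2.93 CPM in uninvolved samples and 0.969, 1.48, 0.357, 1.43 and 1.47 CPM in low-risk livers. The groups did not overlap, and Cyp3a44 rose by 1.15 (SE 0.31, adjusted p = 0.0056). Cyp3a59 had 18.3, 19.9, 16.1, 19.2 and 16.5 CPM in uninvolved samples and 9.75, 11.7, 12.1, 10.4 and 14.7 CPM in low-risk livers, also without overlap. It rose by 0.38 (SE 0.15, adjusted p = 0.037). This call was lost, with log2 values of 0.31 to 0.37, without low-risk liver 2, 4 or 9, without uninvolved liver 7 without the summed sample of livers 3 and 6, or with no filter on low counts (0.35, adjusted p = 0.065). Cyp3a25 had 453 ± 127 and 415 ± 59.8 CPM, with a log2 difference of -0.12 (95% interval -0.50 to 0.26, adjusted p = 0.60 in edgeR). Cyp3a13 had 198 ± 27.0 and 173 ± 11.9 CPM, with -0.04 (-0.37 to 0.30, adjusted p = 0.86). Cyp3a16 held 0, 8, 0, 1 and 0 counts in the uninvolved samples and 0, 0, 0, 8 and 0 counts in the low-risk livers, and was not tested.

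Against 10-month vehicles, which enter with the same uninvolved samples, Cyp3a11 rose by 2.08 (SE 0.42, adjusted p = 0.00068, edgeR), Cyp3a44 by 0.80 (SE 0.29, adjusted p = 0.028) and Cyp3a59 by 0.39 (SE 0.14, adjusted p = 0.025). These were 3 of 5 members, with a background of 57.7% of 16338 genes called and 31.2% higher. The Cyp3a44 call was lost without vehicle 4 (0.69) or the summed uninvolved sample (0.62). The Cyp3a59 call was lost without vehicle 5 (0.30), vehicle 7 (0.36) or the summed uninvolved sample (0.34). Without uninvolved liver 7, Cyp3a25 passed the test as lower (-0.47). Once the vehicle library with a tumor label joined the vehicles, 0 members were called, and Cyp3a11 had 1.09. An interaction term over low-risk, high-risk and uninvolved livers compared the difference at 10 months with that at 5 months. It was -0.25 for Cyp3a11 (95% interval -1.27 to 0.78) and -1.45 for Cyp3a44 (-3.07 to 0.17), and 0 of 6 members passed in edgeR or DESeq2 (background 0.448% of 16084 genes). Cyp3a59 alone had an unadjusted p under 0.05, with -0.81 (-1.59 to -0.04) and an adjusted p of 0.38.

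Tumors were compared with uninvolved liver. Of the 6 members tested, 2 were higher and 0 lower (background 7.55% of 16362 genes higher and 10.5% lower). Cyp3a59 had 17.1, 32.3 and 48.1 CPM (lowest, median and highest) in tumors, and 5 of 7 tumors lay above every uninvolved sample. It rose by 0.72 (SE 0.22, adjusted p = 0.038, edgeR). This call was lost, with log2 values of 0.58 to 0.75, when tumor 1, 3, 5 or 12 or uninvolved liver 1, 5, 7 or 12 was left out. Cyp3a16 ranged from 12 to 116 counts (0.430 to 4.44 CPM) in tumors, above the 0 to 8 counts of the uninvolved samples. Its log2 fold change of 5.10 (SE 0.92, adjusted p = 0.0046, edgeR) is set against a group of 9 counts in all. It had passed the filter through the tumors, so the count of 2 higher members leans on that filter. Cyp3a44 had 2.24, 6.36 and 7.23 CPM in tumors, and 5 of 7 lay above every uninvolved sample. Its log2 difference was 0.82 (SE 0.29, adjusted p = 0.064) and passed the test without tumor 7 (0.89), tumor 11 (0.96) or the summed uninvolved sample (0.995), with DESeq2 (0.84) and in 1 fit of the 4 groups of 10 months (0.87). Cyp3a11 had 0.69 (SE 0.41, adjusted p = 0.25), and the groups overlapped. By their titles, 6 tumors share a mouse with an uninvolved library. With the mouse as a replicate block, Cyp3a44 was called (0.89) and Cyp3a59 was not (0.68), with 1920 of all genes called. That fit took the near-identical uninvolved libraries 3 and 6, summed elsewhere, as separate mice. Without mice 3 and 6 the block gave 4 calls, with Cyp3a11 at 1.10 and Cyp3a44 at 1.19, and 3037 of all genes were called. DESeq2 called 5 members and 5003 of all genes, against 2961 of all genes in the reported fit.

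Against 10-month vehicles, 3 of 6 members were higher in tumors (background 45.9% of 15293 genes called, 24.8% higher). All 7 tumors exceeded all 6 vehicles for Cyp3a11, Cyp3a44 and Cyp3a59, but the share of all genes that did the same was not counted. Cyp3a11 rose by 2.80 (SE 0.38, adjusted p = 7.0e-05, edgeR), Cyp3a44 by 1.65 (SE 0.27, adjusted p = 0.00021) and Cyp3a59 by 1.15 (SE 0.23, adjusted p = 0.0011). Cyp3a16 had 1.48 (SE 0.84, adjusted p = 0.16). Cyp3a13 passed the test as lower (-0.37) only without tumor 7. The non-member Cyp3a57 had a log2 difference of 3.20 (SE 0.87, adjusted p = 0.0080), with 0.118 ± 0.120 CPM in vehicles (n = 6) and 1.37 ± 1.46 CPM in tumors (n = 7). It had passed the filter on low counts through the tumors.

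**Figure D4:**
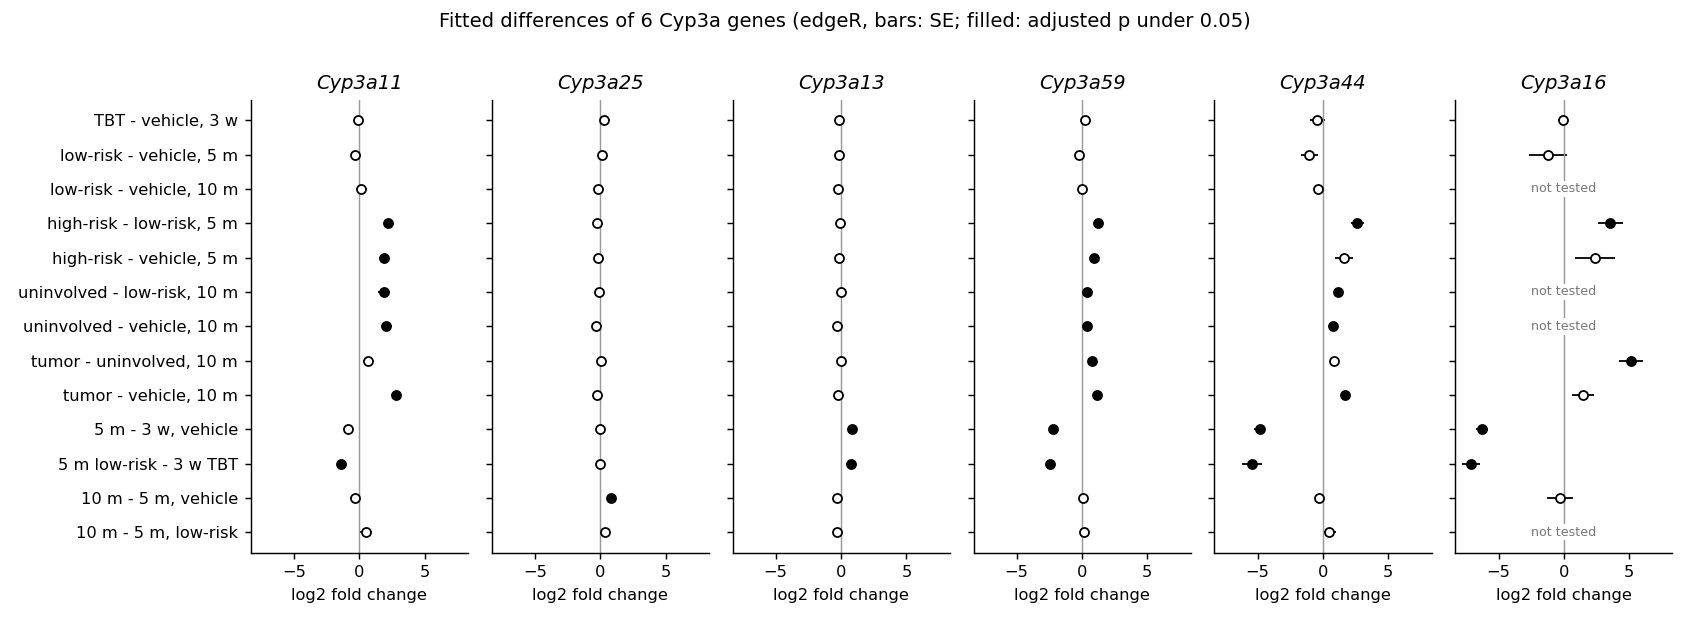
Log2 fold changes (edgeR) of 6 members in 13 comparisons, with SE as bars. Filled points passed an adjusted p of 0.05. Cyp3a11, Cyp3a44 and Cyp3a59 lie to the right of 0 in the comparisons of high-risk, uninvolved and tumor tissue with low-risk or vehicle liver, and Cyp3a25 and Cyp3a13 lie between -0.32 and 0.86 throughout.

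Among 27 receptors and liver factors that act on Cyp3a genes, 1 was higher and 13 were lower of 26 tested at 5 months, with high risk set against low risk. Their median log2 difference was -0.51, against -0.01 over all genes. At 10 months, uninvolved against low-risk, 3 were higher and 9 lower of 26, with a median of -0.33 against 0.05. Over all genes, 20.3% were higher and 18.5% lower at 5 months, and 27.7% higher and 24.7% lower at 10 months. PXR (Nr1i2) did not pass in either comparison, with 0.19 (SE 0.14, adjusted p = 0.31, edgeR) and 0.24 (SE 0.11, adjusted p = 0.069). CAR (Nr1i3), a receptor that shares many targets with PXR, fell by 2.19 (SE 0.41, adjusted p = 8.9e-05) and by 1.21 (SE 0.36, adjusted p = 0.011). Rxra, the partner of both, fell by 0.37 (SE 0.14, adjusted p = 0.028) and by 0.48 (SE 0.11, adjusted p = 0.0014). Nr1h4, the bile acid receptor, fell by 0.90 at 5 months (SE 0.14, adjusted p = 4.8e-06), and the clock-linked factor Hlf by 1.10 (SE 0.21, adjusted p = 8.3e-05). At 10 months Cebpa, a hepatocyte factor, fell by 0.98 (SE 0.11, adjusted p = 2.7e-06) and Ppara, the fatty acid receptor, by 0.95 (SE 0.11, adjusted p = 3.1e-06). In vehicles between 3 weeks and 5 months 0 of 26 rose and 1, Ppargc1a, a coactivator, fell, by 1.07 (SE 0.32, adjusted p = 0.027).

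Of 14 genes for electron supply and haem, 1 was higher and 9 lower at 5 months with high risk, and 1 was higher and 7 lower in uninvolved samples at 10 months. Medians were -0.47 and -0.34. The shares of all genes called lower were 18.5% and 24.7%. Cyb5r3, a reductase of cytochrome b5, fell by 0.87 (SE 0.14, adjusted p = 1.3e-05, edgeR), and Urod, a haem synthesis enzyme, by 0.72 (SE 0.12, adjusted p = 2.4e-05) at 5 months. Cyb5b fell by 1.13 (SE 0.11, adjusted p = 1.0e-06) and Alad, another haem enzyme, by 0.56 (SE 0.08, adjusted p = 3.4e-05) at 10 months. Por had 0.06 (adjusted p = 0.88) at 5 months and rose by 0.68 at 10 months (SE 0.24, adjusted p = 0.023). Between 3 weeks and 5 months in vehicles 2 rose and 1 fell, among them Pgrmc1, a haem-binding partner of P450s, which rose by 0.67 (SE 0.13, adjusted p = 0.0025), and Hmox1, which degrades haem and fell by 0.98 (SE 0.22, adjusted p = 0.0059).

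Other genes known as CAR or PXR targets went both ways. Of 26 tested at 5 months 12 were higher and 10 lower (median 0.41), and of 24 tested at 10 months 9 were higher and 9 lower (median 0.08). Over all genes, 20.3% were higher and 18.5% lower at 5 months, and 27.7% and 24.7% at 10 months. The exporter Abcc4 rose by 2.04 (SE 0.19, adjusted p = 6.6e-09, edgeR) and the glutathione transferase Gsta2 by 3.21 (SE 0.34, adjusted p = 6.1e-08) in high-risk livers. Cyp2b10, the usual marker of CAR activity, rose by 3.34 (SE 0.81, adjusted p = 0.0013), and Cyp2c55 by 2.25 (SE 0.25, adjusted p = 7.7e-08). Cyp2c29 fell by 2.17 (SE 0.33, adjusted p = 5.1e-06). At 10 months Cyp2c37 fell by 3.16 (SE 0.18, adjusted p = 4.3e-09) and Cyp2c50 fell by 2.71 (SE 0.18, adjusted p = 1.5e-08). In vehicles between 3 weeks and 5 months 5 were higher and 9 lower of 26 (over all genes, 8.93% higher and 9.93% lower). Cyp2b9, a female and juvenile P450, fell by 7.48 there (SE 0.43, adjusted p = 9.8e-09). The uptake carrier Slco1a4 fell by 2.19 (SE 0.18, adjusted p = 5.5e-07).

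Sex-biased liver genes were counted beside the members. Of 22 male-biased genes, 0 were higher and 20 lower with high risk at 5 months, 1 was higher and 14 lower in uninvolved samples at 10 months, and 21 rose and 0 fell in vehicles between 3 weeks and 5 months. The respective medians were -1.99, -0.92 and 4.74, against -0.01, 0.05 and 0.03 over all genes. Of all genes tested, 20.3%, 27.7% and 8.93% were higher and 18.5%, 24.7% and 9.93% lower in these 3 comparisons. Several of these genes (Mup, Cyp2d, Cyp2c and Sult2a) have near-identical copies, so single values of them are uncertain. Mup21, a pheromone carrier, fell by 4.49 (SE 0.51, adjusted p = 1.2e-07, edgeR) and the P450 Cyp2d9 by 2.08 (SE 0.24, adjusted p = 9.1e-08) at 5 months. Hsd3b5, a male steroid enzyme, fell by 4.71 at 10 months (SE 0.47, adjusted p = 2.2e-06). Of 19 female-biased genes tested at 5 months, 11 were higher and 0 lower, with a median of 1.07. Genes low in adult male liver can pass the filter on low counts only through the group where they are higher. The counts of female-biased genes therefore lean on that filter, and which group carried each gene was not recorded. Fmo2, a flavin monooxygenase, rose by 1.32 (SE 0.22, adjusted p = 1.6e-05) and Cyp2a22 by 1.97 (SE 0.37, adjusted p = 9.0e-05). At 10 months 5 of 17 were higher and 0 lower, with Cyp2a4 up by 4.02 (SE 0.69, adjusted p = 0.00026) and Prom1, a surface protein of progenitor cells, up by 2.07 (SE 0.34, adjusted p = 0.00012). In vehicles between 3 weeks and 5 months 0 female-biased genes rose and 18 of 24 fell. The sulfotransferase Sult2a1 had 75.5 ± 17.5 CPM at 3 weeks and 0.0459 ± 0.0306 CPM in the batch 1 vehicles of 5 months (n = 7 each), and Sult2a2 had 47.5 ± 10.2 and 0.0312 ± 0.0224 CPM in the same livers. Both had passed the filter through the 3-week livers. The pheromone carrier Mup20 rose by 5.05 (SE 0.27, adjusted p = 5.5e-09). Of 10 genes of growth hormone signalling, 0 were higher and 4 lower in each risk comparison, and 0 rose and 2 fell in vehicles between 3 weeks and 5 months. The receptor Ghr fell by 1.10 (SE 0.13, adjusted p = 1.6e-07) and 0.85 (SE 0.13, adjusted p = 5.0e-05), and Igfals, the carrier of IGF1, by 1.16 (SE 0.22, adjusted p = 9.5e-05) and 1.02 (SE 0.18, adjusted p = 0.00024). Between tumors and uninvolved liver, 0 male-biased genes and 0 growth hormone genes were called, and 1 of 17 female-biased genes was lower (over all genes, 7.55% higher and 10.5% lower).

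Markers of other cells and zones were counted beside these results, and their part in them was not tested. Over all genes, 20.3% were higher and 18.5% lower at 5 months. At 5 months the 10 perivenous hepatocyte markers summed to between 1923 and 7927 CPM in high-risk and between 7467 and 15838 CPM in low-risk livers, with 8 of 10 called lower and 0 at 0. The 7 periportal markers summed to 7626 to 11820 against 5041 to 8619 CPM, with 2 called higher. The 6 proliferation markers summed to 29.6 to 281 against 5.75 to 41.6 CPM and all 6 were called higher, among them Mki67 by 3.22 (SE 0.39, adjusted p = 2.6e-07, edgeR). The 8 stellate cell markers summed to 605 to 1840 against 326 to 624 CPM, with 6 higher and 1 lower. Cholangiocyte markers summed to 33.0 to 448 against 25.1 to 236 CPM, with 4 of 6 higher. Lymphocyte markers summed to 15.4 to 94.5 against 5.89 to 87.8 CPM, with 4 of 8 higher. Macrophage markers summed to 222 to 637 against 259 to 523 CPM, with 2 of 8 higher and 2 lower. Endothelial markers summed to 313 to 549 against 302 to 605 CPM, with 1 of 6 higher and 4 lower, and erythrocyte markers to 104 to 739 against 103 to 1051 CPM, with 1 of 5 lower. Intestinal markers summed to 51.6 to 170 against 31.7 to 687 CPM, and 0 of the 3 tested were called. Pancreatic acinar markers, of which 0 of 6 were tested, summed to at most 43.3 and 2.70 CPM. Of 8 hepatocyte markers tested 1 was higher and 4 lower. At 10 months the perivenous sum was 2558 to 7599 CPM in uninvolved samples and 10271 to 11994 CPM in low-risk livers, with 7 of 10 lower. Over all genes, 27.7% were higher and 24.7% lower there. Stellate cell markers (5 of 8 higher), cholangiocyte markers (6 of 6 higher) and proliferation markers (6 of 6 higher) lay above those shares, and 6 of 8 macrophage markers were lower and 1 higher. Endothelial markers had 1 of 6 higher and 2 lower, erythrocyte markers 1 of 5 lower, lymphocyte markers 4 of 8 higher, periportal markers 3 of 7 higher and hepatocyte markers 1 of 8 higher and 4 lower. Of 3 intestinal markers tested 1 was higher and 1 lower, and 0 acinar markers were tested. Against uninvolved liver, the tumors had 0 perivenous, 0 periportal, 0 stellate cell and 0 proliferation markers called, and 1 of 6 cholangiocyte markers higher (over all genes, 7.55% higher and 10.5% lower).

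Over the 72 samples of the 9 groups the likeness of levels (log2 of CPM + 0.5) was described by Pearson's r, with no test, since the samples share ages and groups. Cyp3a16 and Cyp3a44 had an r of 0.85, Cyp3a44 and Cyp3a59 of 0.77, and Cyp3a16 and Cyp3a59 of 0.71. Cyp3a11 had 0.55 with Cyp3a44 and 0.51 with Cyp3a59. Cyp3a25 and Cyp3a59, with the most similar windows before the start among the members shown, had 0.22. Among 9538 other genes, the most like Cyp3a11 were the kinase Map4k4 (0.89) and the glutathione transferase Gstm3 (0.85). Cyp3a16 was most like Cyp2b9 (0.87) and Sult2a1 (0.87). Cyp3a44 was most like Cyp2a22 (0.90) and the transporter Slc22a27 (0.89). Cyp3a59 was most like Slc25a4 (0.91), the mitochondrial ADP and ATP carrier, and Lpl (0.87), lipoprotein lipase. For Cyp3a13 they were Nnmt (0.79) and Slc3a1 (0.78), and for Cyp3a25 they were Mtx3 (0.69) and Rnf149 (0.68).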

How the data were processed

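Per the labels' protocols, liver RNA (RNeasy, with DNase) went into stranded libraries of total RNA. The authors deposited gene counts as whole numbers. Per the submitters' processing notes, Trim Galore, HISAT2 and featureCounts were used with mm10, and the name of the deposited table adds a ComBat-seq adjustment between batches. How strand was set in counting, and whether groups entered that adjustment, are not given in the sources used here.

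Counts were fitted over all genes with edgeR 4.0.16 in R 4.3.3 (TMM, filterByExpr, robust quasi-likelihood F tests, Benjamini-Hochberg adjustment at 0.05), and a batch term at 5 months. Groups of 1 age entered a single fit, and tumors were fitted with 1 other group. Ages were compared within batch 1. DESeq2 1.42.0 was an alternative. CPM used library totals, whereas fitted folds used TMM scaling. Scaling by library totals alone moved the median log2 difference of all genes to between 0.29 and 0.38 in comparisons of high-risk, uninvolved or tumor tissue with low-risk or vehicle liver, and to -0.15 in vehicles of 5 months against 3 weeks. The fits were also run on simulated counts with known folds in a small set of genes. Those counts held no batch effect, so that run cannot show how batch or the many changed genes act here. Tumors and uninvolved livers were taken as pairs from the mouse numbers in their titles, and the deviations of the pairs correlated between -0.41 (mouse 6) and 0.72 (mouse 7). Named genes were all members, the 2 genes most like each, and up to 2 called genes per list with the smallest adjusted p, plus genes named for their role (Nr1i2, Nr1i3, Rxra, Por, Cyp2b10, Cyp2c55 and Cyp2c29). The members and lists were chosen with earlier results of these data known.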

Additional observations from a re-analysis of the deposited data

Results flagged for a closer look

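Outlying samples were looked for among the members with a mean of at least 1 CPM, in groups of 4 to 10 samples. Of the 44 sets of values tested, 2 held a sample far from the others, and chance alone gives about 1 in 20. TBT mouse 6 of 3 weeks had 80.2 CPM of Cyp3a16, against 41.6 CPM in the next highest of 8 livers. Tumor 6 had 4.44 CPM of Cyp3a16, against 1.85 CPM in the next highest of 7 tumors.

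In the 10-month vehicle library with a tumor label, which no comparison used, 3 members lay above every 10-month vehicle liver. It had 5760 CPM of Cyp3a11 (vehicles at most 876 CPM), 23.1 CPM of Cyp3a59 (at most 14.3 CPM) and 2.35 CPM of Cyp3a44 (at most 1.94 CPM). For Cyp3a11 this level lies within the 1675 to 9066 CPM of the tumors of TBT mice. It is a single library of 11.5 M counts, with no replicate, and 14.1% of its counts came from mitochondrial genes, which put it among the 6 technically deviating libraries.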

How the results depend on the processing

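Of 241 recomputed member counts, 220 stayed within 1.5 times the reported count. These include comparisons with 0 members called both times, and a change from 2 to 3 also counts as kept, so this tally is lenient. With high risk set against low risk at 5 months, batch 1 alone gave 1 called member in place of 4. In high-risk livers against vehicles (2 members), no filter on low counts gave 1, no batch term 4, batch 1 alone 0, a fit of the 2 groups only 1, the title number as a replicate block 0, and leaving out single vehicles 1 to 2. In uninvolved samples against vehicles (3), adding the vehicle library with a tumor label to the vehicles gave 0, and leaving out single samples 1 to 4. In tumors against uninvolved liver (2), DESeq2 gave 5, the replicate block without mice 3 and 6 gave 4, and leaving out single samples 1 to 3. In vehicles of 10 against 5 months (1), that library gave 0. Signs were compared only for members called in at least 1 setting of a comparison. They turned for 3 values that were not called in the reported fits. These were Cyp3a16 in high-risk livers against vehicles (-1.19 under the replicate block), and, with library totals only, Cyp3a25 in uninvolved samples against vehicles (0.016) and Cyp3a13 in tumors against vehicles (0.030). Cyp3a44 in low-risk livers against vehicles at 5 months, called in no setting, also turned without the batch term. The block kept only title numbers found in both groups. These were 3 pairs in high-risk livers, 4 in uninvolved samples and 4 in tumors, each against vehicles. On these fewer samples, Cyp3a44 was no longer called in the uninvolved and Cyp3a59 in the tumor comparison with vehicles (0.70 and 1.12). Outside tumors against uninvolved liver the titles' numbers name different mice, so the block there holds no true pairing. Among the other alternatives that were run, calls of Cyp3a11 in high-risk and uninvolved against low-risk livers held throughout. These alternatives differed, since single samples were left out in turn for the uninvolved comparison only. Of the 5-month livers, only vehicles were left out singly. Whether the calls between the risk groups of that age depend on any single exposed liver was therefore not tested. With library totals only, the higher share of all calls moved from 52.3% to 86.1% (high-risk against low-risk) and from 52.8% to 78.8% (uninvolved against low-risk), and from 47.4% to 20.8% in vehicles of 5 months against 3 weeks. Calls over all genes moved from 5745 to 773 in batch 1 alone, and from 2341 to 0 in high-risk livers against vehicles in batch 1 alone. They moved from 2961 to 5003 with DESeq2 in tumors against uninvolved liver. Without technically deviating libraries they moved from 1165 to 3362 (vehicles, 10 against 5 months) and from 2627 to 4801 (vehicles, 5 months against 3 weeks). With no filter on low counts these were 345 and 1426. The background shares of both age comparisons move with them. The causes were not tested. Low counts limit Cyp3a16, Cyp3a41a and Cyp3a41b, and the likeness of Cyp3a41a to Cyp3a41b limits the values of both as well.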
